A study of Mus musculus with 4 samples.

Results

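The amino acid transporter families of the mouse blastocyst are described here as the genes listed in both assays whose symbol begins with Slc1a, Slc3a, Slc6a, Slc7a, Slc36a, Slc38a, or Slc43a followed by a digit. The rule took 65 of the 20714 gene symbols that the RNA-seq and Ribo-seq libraries have in common, with 7 Slc1, 2 Slc3, 22 Slc6, 16 Slc7, 4 Slc36, 11 Slc38, and 3 Slc43 symbols. One further match, Slc36a1os, was listed by RNA-seq only, at 0 in both replicates. The rule used names and no measured value. It also takes Slc7a6os and Slc6a19os, which are named for their position opposite a transporter gene and are not themselves transporters, and Slc6 carriers of neurotransmitters, creatine, and taurine.

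The samples were wild-type blastocysts with no experimental treatment, with 2 RNA-seq libraries (mRNA level) and 2 Ribo-seq libraries (fragments protected by ribosomes, RPF). The embryos came from C57BL/6J females aged 4 weeks mated with PWK/PhJ males, while the strain label of the same samples reads C57BL/6N x PWK. The females had been injected with the hormones PMSG and hCG to induce ovulation. Embryos were taken from the mother at the 8-cell stage, grown to blastocysts in KSOM medium, and freed of the zona pellucida with acid. The labels do not say how many embryos entered each library or that replicates came from separate collections, so that p-values measure the spread between these libraries. Each library holds the whole blastocyst, so that fewer cells of a type and less RNA per cell cannot be told apart.

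Amino acid transporters move amino acids across membranes, and the families differ in what they carry and in what drives them. Slc1 carriers take up glutamate and aspartate or small neutral amino acids with sodium, Slc38 carriers take up neutral amino acids with sodium, and Slc36 carriers use protons. Slc7 holds the cationic amino acid transporters and the light chains, which reach the membrane as pairs with a Slc3 heavy chain and exchange one amino acid for another. In preimplantation embryos these carriers feed protein synthesis and the mTORC1 pathway, which senses amino acids, and also serve the control of cell volume.

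The levels are FPKM as the authors computed them, on transcripts for mRNA and on coding sequences for RPF, so that genes can be compared per length within an assay. Low FPKM values fell on steps worth 1 fragment each. These implied totals of 5439908 and 5156005 fragments for the mRNA replicates and of 534920 and 485373 for the RPF replicates, and 63.3% and 61.7% of the mRNA values and 84.6% of the RPF values in each replicate lay within 0.1 of a whole fragment. On a coding sequence of 1500 bases, 1 footprint was worth 1.44 and 1.59 FPKM, and a floor of 3 footprints was 4.32 and 4.76 FPKM. These floors cover counting error only. The libraries carried markers of the blastocyst lineages, although several of those for epiblast and primitive endoderm were under 1 FPKM in both mRNA replicates. The 6 trophectoderm markers (Cdx2, Gata3, Eomes, Krt8, Krt18, Tfap2c) summed to between 2779 and 5765 FPKM in the 4 libraries. The keratins Krt8 and Krt18 made up most of this sum in each library. Of the 7 cumulus and granulosa markers 6, and of the 6 oocyte markers 4, were listed at 0 in all 4 libraries. The 5 markers of inner cell mass and epiblast summed to 143.2 and 58.1 FPKM in mRNA and 693 and 844 FPKM in RPF, so that the mRNA replicates differed. The 4 primitive endoderm markers summed to 12.5 and 9.34 FPKM in mRNA and 154 and 143 FPKM in RPF. Gata6 made up most of this mRNA sum, at 10.86 and 9.002 FPKM. Gata4 had 0.0574 FPKM and 0 in mRNA and 14.98 and 20.2 FPKM in RPF. Sox17 had 0.2041 FPKM and 0 in mRNA and 32.7 and 27.57 FPKM in RPF. Among the epiblast markers, Sox2 had 0.889 and 0.6824 FPKM in mRNA and 37.05 and 35.39 FPKM in RPF. Klf4 had 0.775 and 0.477 FPKM in mRNA and 7.482 and 6.596 FPKM in RPF. The part of this marker difference in the ratios of RPF to mRNA given below was not tested.

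A few members carried most of the signal. Of the 65, 17 had a mean RPF of at least 10 FPKM (26.2%, against 30.1% of all genes), 9 had a mean mRNA of at least 10 FPKM, all of them among those 17, and 4 had a mean RPF of at least 100 FPKM. By mean RPF the order was led by Slc6a8, Slc38a4, Slc3a2, Slc1a1, and Slc7a6, which together gave 64.1% and 63.9% of the summed RPF of all members in replicates 1 and 2. By mean mRNA it was led by Slc7a6, Slc38a4, Slc3a2, Slc6a8, and Slc43a3. In the RPF order, Slc38a4 lay above Slc3a2, Slc3a2 above Slc1a1, and Slc7a6 above Slc38a1 with no overlap of replicates. Every other pair of neighbours among the first 20 overlapped, Slc6a8 and Slc38a4 included, so that those places did not differ beyond the spread. In the mRNA order, Slc7a6 lay above Slc38a4, Slc3a2 above Slc6a8, Slc6a8 above Slc43a3, Slc7a7 above Slc38a1, and Slc6a6 above Slc7a5 without overlap, and the other neighbours among the first 20 overlapped.

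**Figure D1:**
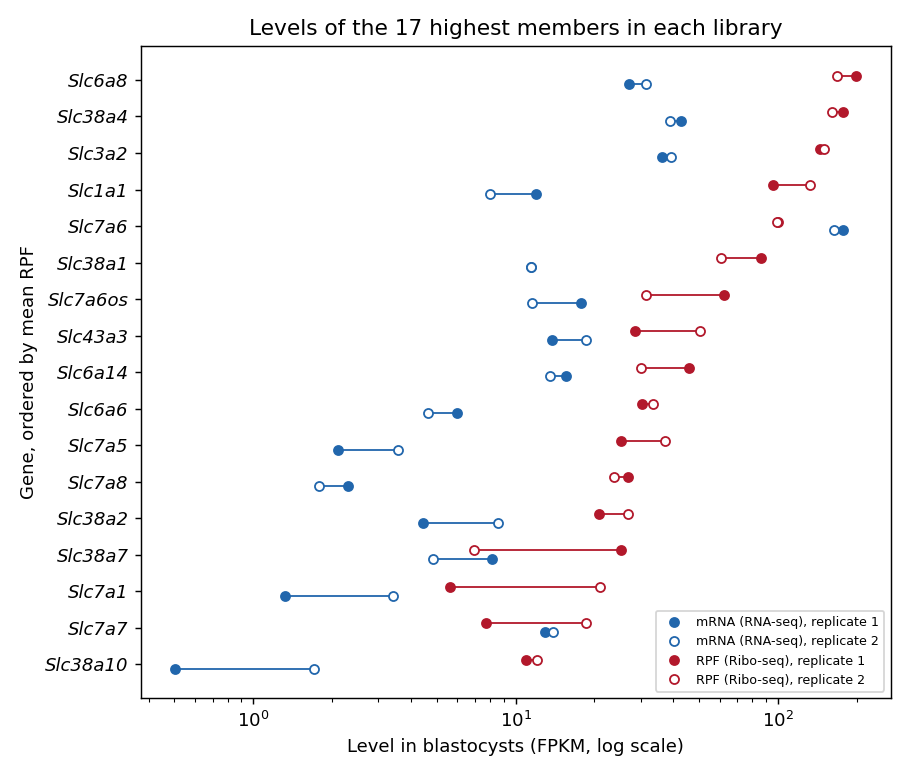
FPKM (log axis) of the 17 members with a mean RPF of at least 10 FPKM, ordered by mean RPF, with 1 point per library, blue for mRNA and red for RPF, filled for replicate 1 and open for replicate 2, and lines joining replicates. Slc7a6 is the only member whose 2 mRNA values lie above both of its RPF values, and Slc38a7 and Slc7a1 have the widest gaps between RPF replicates.

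The Slc3 heavy chains were unequal. Slc3a2 (chromosome 19, 8781372 to 8797859 on NCBIM37, the assembly of mm9), which encodes the 4F2 heavy chain (CD98) that brings Slc7a5, Slc7a6, Slc7a7, and Slc7a8 to the membrane, had 36.04 and 39.3 FPKM of mRNA in replicates 1 and 2, and 145.1 and 149.5 FPKM of RPF. Both replicates of each assay were close, and its RPF exceeded that of 93.3% of all genes. Slc3a1 (chromosome 17, 85427687 to 85463583), the heavy chain rBAT of the cystine and dibasic amino acid exchanger in kidney and gut, had 0.934 and 1.33 FPKM of mRNA and no footprint in either replicate, where a floor of 3 footprints is 3.02 and 3.33 FPKM. Its light chain partner Slc7a9 had 0.605 FPKM of mRNA in replicate 1, and its value was 0 elsewhere.

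Among the light chains, Slc7a6 stood at the head of the mRNA order. Slc7a6 (chromosome 8, 108692775 to 108722604), the y+LAT2 light chain that exchanges cationic against neutral amino acids, had 176.9 and 163.8 FPKM of mRNA, above 97.8% of all genes and more than any other member in both replicates. Its RPF level was 100.4 and 99.6 FPKM, or 72.2 and 65.0 footprints, at rank 5. Slc7a6 thus made up 44.1% and 42.2% of the summed mRNA of all members and 8.95% and 8.96% of their summed RPF. Slc7a7 (chromosome 14, 54989128 to 55032856), which encodes the related y+LAT1, had 12.9 and 13.9 FPKM of mRNA and 7.73 and 18.6 FPKM of RPF, or 5.496 and 11.99 footprints. Here the RPF replicates lay on both sides of the mRNA values.

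Slc7a5 and Slc7a8 had mRNA values below their RPF values in all replicates. The same held for every member with a mean RPF of at least 10 FPKM except Slc7a6, Slc7a7, and Slc38a7. RPF exceeded mRNA in the median gene as well, so that this order does not set Slc7a5 and Slc7a8 apart. Slc7a5 (chromosome 8, 124405052 to 124431594), the LAT1 exchanger of large neutral amino acids such as leucine, had 2.11 and 3.57 FPKM of mRNA and 25.2 and 37.0 FPKM of RPF (17.99 and 23.98 footprints). For Slc7a8 (chromosome 14, 55341053 to 55400723), which encodes LAT2, the mRNA was 2.31 and 1.77 FPKM and the RPF 26.8 and 23.7 FPKM (20.0 and 16.0 footprints). Their RPF replicates overlapped, so that the 2 genes were not separated at the RPF level. Slc7a11, the cystine and glutamate exchanger xCT, had 0.0981 and 0.2145 FPKM of mRNA and was listed at 0 for RPF, as was Slc7a10, with a floor of 4.30 and 4.73 FPKM for Slc7a11. The levels of the 6 light chains known to pair with Slc3a2 (Slc7a5, Slc7a6, Slc7a7, Slc7a8, Slc7a10, Slc7a11) were then summed and set against Slc3a2, a comparison chosen after the values were seen. The sum was 5.39 and 4.67 times the Slc3a2 level in mRNA and 1.104 and 1.196 times in RPF. Without Slc7a6 it was 0.484 and 0.496 times in mRNA and 0.412 and 0.530 times in RPF, so that the assays no longer separated.

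Slc7a6os (chromosome 8, 108724338 to 108734833), on the strand opposite Slc7a6, had 17.8 and 11.5 FPKM of mRNA and 62.5 and 31.6 FPKM of RPF. In GENCODE vM1 its gene and that of Slc7a6 end 1733 bases apart and share no exon. The gene models that the authors used were those of UCSC and were not used here. In each of Slc7a5, Slc7a6, Slc7a7, and Slc7a8, 0% of the 28-base windows of the coding sequence occurred in a coding transcript of another gene.

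Cationic amino acid transporters of Slc7 were low. Slc7a1 (chromosome 5, 149138986 to 149211480), the CAT-1 carrier of arginine and lysine, had 1.32 and 3.41 FPKM of mRNA and 5.61 and 21.0 FPKM of RPF, or 4.996 and 16.99 footprints, a wide spread between replicates. Slc7a3, the related CAT-3, was listed at 0 and had 1.49 FPKM of mRNA in replicates 1 and 2, with 1.13 and 6.23 FPKM of RPF, or 0.999 and 5.00 footprints. Slc7a2, Slc7a4, and Slc7a14 each stayed below 0.2 FPKM in both mRNA replicates, and among them 1 footprint was seen, for Slc7a4 in replicate 1.

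The Slc38 family held 5 of the 17 higher members. Slc38a4 (chromosome 15, 96825254 to 96886387), an imprinted carrier of neutral and cationic amino acids, had 42.9 and 38.7 FPKM of mRNA and 177.7 and 161.5 FPKM of RPF (136.9 and 112.9 footprints), at rank 2 in both assays. Slc38a1 (chromosome 15, 96401849 to 96473344), the SNAT1 carrier of glutamine and other neutral amino acids, had 11.5 and 11.4 FPKM of mRNA and 86.4 and 60.7 FPKM of RPF. For Slc38a2 (chromosome 15, 96517825 to 96530129), the SNAT2 carrier that cells induce when amino acids are scarce, mRNA was 4.43 and 8.55 FPKM and RPF 20.9 and 26.8 FPKM. These 3 genes are neighbours on chromosome 15, with 44.5 kb between Slc38a1 and Slc38a2 and 295 kb between Slc38a2 and Slc38a4, and their RPF levels fell in the order Slc38a4, Slc38a1, Slc38a2 in both replicates without overlap.

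Slc38a7 and Slc38a2 overlapped in both assays. Slc38a7 (chromosome 8, 98359820 to 98377439), which releases glutamine and asparagine from lysosomes, had 8.11 and 4.85 FPKM of mRNA and 25.2 and 6.93 FPKM of RPF (16.0 and 4.00 footprints), with the RPF of replicate 2 inside the range of the mRNA. Slc38a10 (chromosome 11, 119965274 to 120012660) had 0.504 and 1.70 FPKM of mRNA and 10.92 and 12.03 FPKM of RPF, which on its long coding sequence of 3270 bases was 17.9 footprints in each replicate. Slc38a9, the lysosomal arginine sensor that acts on mTORC1, had 0.807 and 0.918 FPKM of mRNA and 1.26 and 8.35 FPKM of RPF, or 0.999 and 6.00 footprints. Slc38a6 had 2.03 and 1.33 FPKM of mRNA and, at most, 1 footprint. Slc38a8 was seen at up to 0.240 FPKM of mRNA with no footprint, and Slc38a3, Slc38a5, and Slc38a11 were listed at 0 in all 4 libraries.

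In Slc1, 1 member stood above the others. Slc1a1 (chromosome 19, 28909539 to 28988450), the EAAT3 carrier of glutamate, aspartate, and cysteine, had 11.96 and 8.01 FPKM of mRNA and 95.6 and 132.4 FPKM of RPF (70.0 and 87.9 footprints). Its mRNA was at rank 10 among the members and its RPF at rank 4. Slc1a4, the ASCT1 carrier of alanine, serine, and cysteine, had 0.148 and 0.834 FPKM of mRNA and 6.69 and 11.8 FPKM of RPF, or 5.00 and 8.00 footprints. Slc1a5, which encodes the glutamine carrier ASCT2, had 1.00 and 0.530 FPKM of mRNA and 2.55 and 11.2 FPKM of RPF, or 1.999 and 7.994 footprints. The RPF replicates of Slc1a4 and Slc1a5 overlapped. Of the glial and neuronal glutamate carriers, Slc1a3 had 1 footprint in replicate 2 and up to 0.485 FPKM of mRNA, Slc1a2 and Slc1a7 had mRNA below 0.2 FPKM and no footprint, and Slc1a6 was listed at 0 in every library.

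The Slc6 family, which couples uptake to sodium and chloride, was the largest and held the most members listed at 0, 13 of 22. Slc6a8 (chromosome X, 70918489 to 70927841), the creatine carrier, had 27.2 and 31.5 FPKM of mRNA and 199.5 and 167.9 FPKM of RPF (183.5 and 140.1 footprints), the highest mean RPF of all members. Slc6a6 (chromosome 6, 91634061 to 91709057), the taurine carrier, had 6.01 and 4.64 FPKM of mRNA and 30.3 and 33.4 FPKM of RPF, or 27.0 footprints in each replicate. Slc6a14 (chromosome X, 21292022 to 21319481), the B0,+ carrier of neutral and cationic amino acids, had 15.6 and 13.5 FPKM of mRNA and 45.8 and 30.0 FPKM of RPF. Slc6a6 and Slc6a14 overlapped in RPF, although both mRNA values of Slc6a14 were above those of Slc6a6. Slc6a13, a GABA and taurine carrier, had 2.98 and 0.295 FPKM of mRNA and 1.16 and 6.41 FPKM of RPF, with a wide spread between the replicates of each assay. Slc6a9, the glycine carrier GLYT1, had 2.28 footprints in replicate 1 and 0 in replicate 2, under the floor.

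In Slc43, 1 member stood above the other 2. Slc43a3 (chromosome 2, 84776736 to 84798666), a facilitator of purine nucleobases, had 13.8 and 18.5 FPKM of mRNA and 28.6 and 50.5 FPKM of RPF. Its relatives Slc43a1 and Slc43a2, which carry large neutral amino acids, stayed at or below 1.02 FPKM of mRNA and 4.97 FPKM of RPF. All 4 Slc36 genes were listed at 0 for RPF, and only Slc36a1 had mRNA, 0.4002 FPKM in replicate 1. Of the 28-base windows in the coding sequences of Slc36a1 and Slc36a2, 11.3% and 10.1% also occur in another gene.

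Absence was about as common among the members as among all genes. In all, 23 members (35.4%, against 35.3% of all genes) were listed at 0 in all 4 libraries. These shares are close and are not read as a difference of the families from other genes. Among these members were Slc1a6, Slc36a2, Slc36a3, Slc36a4, Slc38a3, Slc38a5, Slc38a11, Slc6a2, Slc6a4, Slc6a5, Slc6a7, Slc6a11, Slc6a16, Slc6a18, Slc6a19, Slc6a19os, Slc6a20a, Slc6a20b, Slc6a21, Slc7a12, Slc7a13, and Slc7a15. They include the carriers of noradrenaline (Slc6a2) and of serotonin (Slc6a4), and the neutral amino acid carrier of gut and kidney, Slc6a19. For the 20 of them with a gene model, the floor of 3 fragments lay between 2.58 and 5.34 FPKM of RPF and between 0.0803 and 0.459 FPKM of mRNA, and single footprints of other members were seen below such floors. A further 13 members had mRNA in at least 1 replicate and RPF listed at 0 in both, with a mean mRNA of at most 1.13 FPKM (Slc3a1). The reverse held for 2, Slc6a15 and Slc7a4, with 1.998 and 0.999 footprints in replicate 1 only. Footprints were above 0 in both replicates for 23 members and mRNA for 31. Slc6a20a and Slc6a20b share 47.6% and 44.3% of their coding windows with other genes, so that reads there could not be assigned to one of them, but both were listed at 0.

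The ratio of RPF to mRNA was then compared between members and the median gene. It was fitted with limma on log2(FPKM+1) for the 8327 genes whose mean reached 1 FPKM in each assay. Among them were 18 of the 65 members, namely Slc7a6os and 17 others that include the heavy chain Slc3a2. Over all 8327 genes, RPF exceeded mRNA by a median of 1.26 on this scale, and each value below is relative to that median. The threshold was an adjusted p under 0.05 (Benjamini-Hochberg over all genes) together with a log2 difference of at least 1. A higher ratio was called for 2 members, 11.1% of the 18 against 9.13% of all genes fitted, and a lower ratio for 1 member, 5.56% against 3.24%. These shares are close to the background and are not read as a difference of the families from other genes. The median difference of the 18 members was 0.67, and 13 of them (72.2%) were above the median gene. Over all genes this share was 50.0%, which the centring on the median fixes in advance. The difference between these shares was not tested. The middle 50% of all genes ran from -0.76 to 0.79. An unadjusted p under 0.05 in limma was reached by 11 of the 18 members (61.1%), against 35.9% of all genes fitted. That difference was not tested either.

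The members past the threshold were Slc1a1, Slc7a8, and Slc7a6. The ratio of Slc1a1 was higher by 2.13 (SE 0.34, 95% interval 1.19 to 3.07, limma adjusted p = 0.0392), above that of 94.9% of genes, and its mean RPF was 11.4 times its mean mRNA. For Slc7a8 it was higher by 1.85 (SE 0.26, 1.141 to 2.563, limma adjusted p = 0.0305), with 12.4 times as much RPF as mRNA. The ratio of Slc7a6 fell below the median gene, at -2.02 (SE 0.24, -2.68 to -1.37, limma adjusted p = 0.0246), and 4.17% of genes lay below it, with a mean RPF of 0.587 times its mean mRNA. In FPKM, both RPF replicates of Slc7a6 lay below both of its mRNA replicates, and those of Slc1a1 and Slc7a8 lay above. For Slc1a1 and Slc7a8 this does not bear on the call, because RPF exceeded mRNA in the median gene as well. All 3 calls were lost when either RNA-seq library was left out, where 0 of the 8327 genes passed in limma (1337 and 1269 genes, and 3 and 6 members, had an unadjusted p under 0.05 without replicates 1 and 2). With a pseudocount of 0.1 the call of Slc1a1 was lost (limma adjusted p = 0.0611). With the replicate number as a block, all 3 calls were lost. The limma adjusted p was then 0.103 for Slc1a1, 0.0934 for Slc7a8, and 0.0896 for Slc7a6. The differences without RNA-seq replicates 1 and 2 were 2.40 and 1.86 for Slc1a1, 1.98 and 1.71 for Slc7a8, and -1.97 and -2.09 for Slc7a6.

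**Figure D2:**
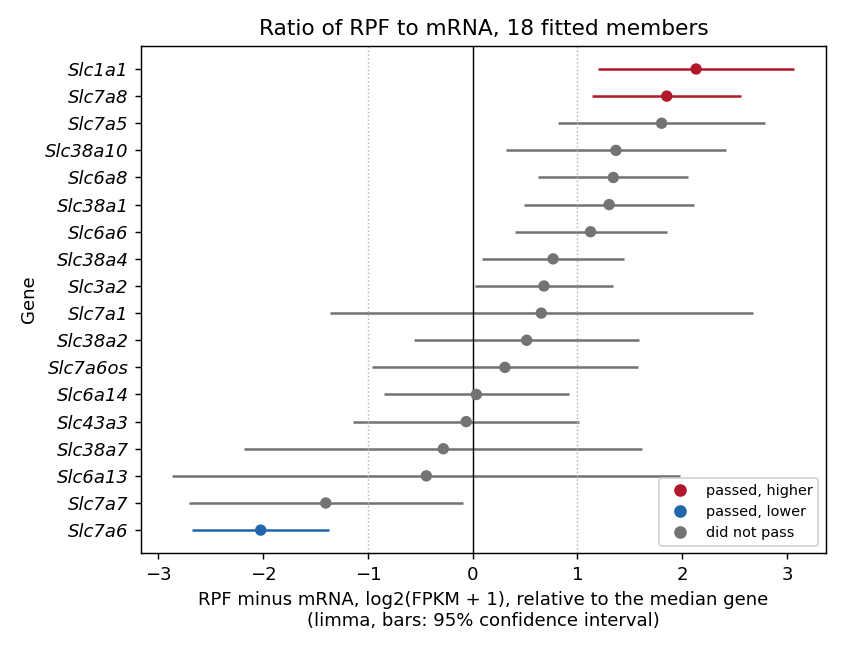
Difference of RPF and mRNA on the log2(FPKM+1) scale relative to the median gene for the 18 fitted members, with 95% confidence intervals from limma; dotted lines mark a difference of 1. Slc1a1 and Slc7a8 (red) passed with a higher ratio and Slc7a6 (blue) with a lower one.

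Several members lay just short of the threshold. Slc6a8 had a difference of 1.34 (SE 0.26, limma adjusted p = 0.0509), Slc7a5 one of 1.80 (SE 0.36, limma adjusted p = 0.0527), Slc38a1 one of 1.30 (SE 0.29, limma adjusted p = 0.0641), and Slc6a6 one of 1.13 (SE 0.26, limma adjusted p = 0.0678). Slc38a4 and Slc3a2, at ranks 2 and 3 of the RPF order, were at 0.77 (95% interval 0.09 to 1.44) and 0.68 (0.02 to 1.34), and at 0.35 and 0.27 under quantile normalization. Slc6a14 and Slc43a3 were near the median gene, at 0.04 (-0.85 to 0.92) and -0.06 (-1.14 to 1.02). Slc7a7 was at -1.40 (-2.71 to -0.10, limma adjusted p = 0.125), the lowest after Slc7a6. Without Ribo-seq replicate 1 it was at -0.84 (limma adjusted p = 0.0755), and without Ribo-seq replicate 2 it passed at -2.11 (limma adjusted p = 0.00895). The intervals of Slc7a1, Slc38a7, and Slc6a13 were the widest, with Slc6a13 running from -2.87 to 1.98. The 4 light chains that were fitted therefore ran from -2.02 to 1.85, nearly the whole range of the 18 members.

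Of the 47 members not fitted, Slc1a4 had the largest ratio of means among those with mRNA, 18.8, on a mean mRNA of 0.491 FPKM. It was followed by Slc6a9 at 12.5, Slc43a2 at 12.2, and Slc1a5 at 8.996. All 4 were under the mRNA limit of the fit, and no test was made for them. Slc6a9 had 2.28 and 0 footprints and Slc43a2 had 3.997 and 0.999, so that their ratios rest on few fragments. The limit itself selects low mRNA among members with footprints, and the order is not read further.

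**Figure D3:**
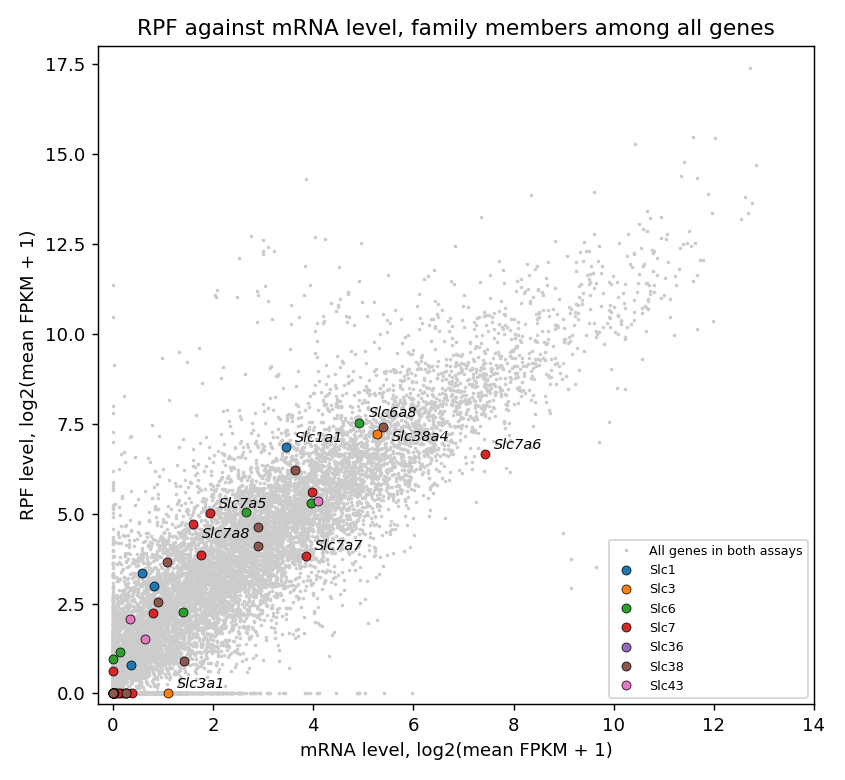
Mean RPF against mean mRNA, both as log2(mean FPKM + 1), with grey points for all 20714 genes and coloured points for the 65 members by family. Slc7a6 lies at the lower edge of the cloud at its mRNA level, Slc1a1, Slc7a5, and Slc7a8 lie toward the upper edge, and Slc3a1 lies on the axis at an RPF of 0.

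Across the 65 members, RPF and mRNA had a Spearman correlation of 0.860, against 0.899 across all genes. Among the 22 members above 0 in all 4 libraries it was 0.877. Between replicates, the members had a correlation of 0.906 for RPF and 0.881 for mRNA. These are across genes, which are not replicates and share the libraries, and no p-value is attached.

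By family, the summed levels were divided differently in the assays. Slc7 made up 53.4% and 51.4% of the summed mRNA of all members and 20.6% and 21.4% of their summed RPF. Slc38 gave 17.55% and 17.4% of mRNA and 28.75% and 25.0% of RPF, Slc6 gave 12.96% and 13.0% of mRNA and 25.1% and 21.4% of RPF, and Slc1 gave 3.31% and 2.57% of mRNA and 9.35% and 14.1% of RPF. For each of these families, the 2 replicates of one assay did not overlap those of the other. Slc3 gave 9.21% and 10.45% of mRNA and 12.9% and 13.4% of RPF, whereas the shares of Slc43 overlapped. Since shares sum to 100%, the large mRNA share of Slc7a6 lowers that of every other family in mRNA.

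**Figure D4:**
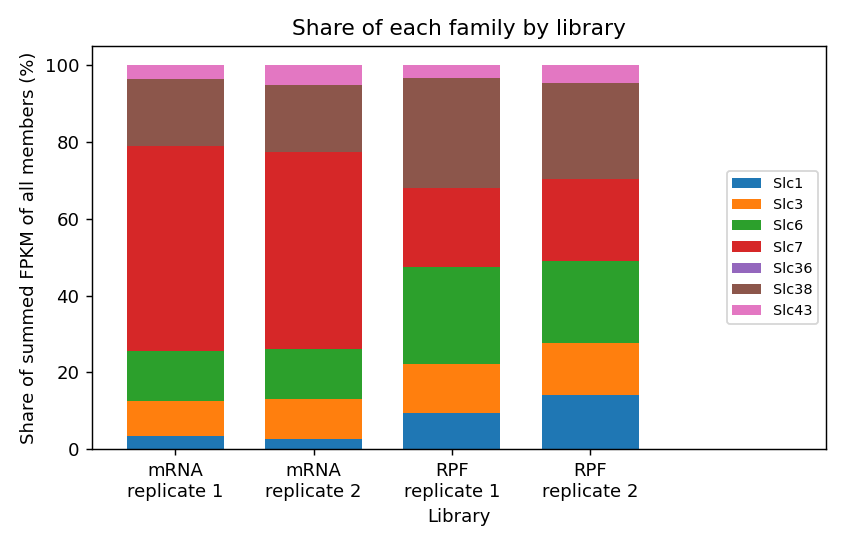
Share (%) of each family in the summed FPKM of the 65 members, 1 bar per library. The Slc7 share is above 50% in both mRNA libraries and near 21% in both RPF libraries, while the Slc36 share is too small to see.

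Promoter sequence was searched for TGATGNAA, the core of the element through which the factors ATF4 and C/EBP induce genes when amino acids are scarce, on both strands, from 250 bases before to 50 after each RefSeq start (GRCm38.p6). It was found in 4 of the 47 members with a window (8.51%), against 4.51% of all 27025 genes in the table. They were Slc7a11, Slc1a4, Slc7a7, and Slc6a21. The windows of the first 3 are shown, 5′ to 3′ on the strand of the gene with the matches in capitals, because they hold the letters of this amino acid response element while the genes differ in level.
Slc7a11: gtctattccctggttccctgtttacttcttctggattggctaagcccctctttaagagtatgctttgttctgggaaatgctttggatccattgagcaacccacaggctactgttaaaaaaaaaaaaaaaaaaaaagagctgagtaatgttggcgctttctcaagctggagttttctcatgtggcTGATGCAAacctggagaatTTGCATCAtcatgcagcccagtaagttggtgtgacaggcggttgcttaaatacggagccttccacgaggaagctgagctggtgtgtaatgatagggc
Slc1a4: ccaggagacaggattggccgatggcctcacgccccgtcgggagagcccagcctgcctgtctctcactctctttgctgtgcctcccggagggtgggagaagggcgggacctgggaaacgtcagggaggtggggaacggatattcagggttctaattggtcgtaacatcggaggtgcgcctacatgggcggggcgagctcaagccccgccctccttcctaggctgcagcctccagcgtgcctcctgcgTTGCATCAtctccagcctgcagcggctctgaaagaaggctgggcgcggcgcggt
Slc7a7: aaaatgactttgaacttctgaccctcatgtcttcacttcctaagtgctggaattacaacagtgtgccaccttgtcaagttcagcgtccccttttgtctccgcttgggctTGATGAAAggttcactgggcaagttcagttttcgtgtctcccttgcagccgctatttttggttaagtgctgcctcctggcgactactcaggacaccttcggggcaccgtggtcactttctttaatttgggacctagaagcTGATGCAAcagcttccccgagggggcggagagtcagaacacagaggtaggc
The Slc7a11 window (chr3:50443564-50443863) has 2 matches on opposite strands, the Slc1a4 window (chr11:20332664-20332963) has 1, and the Slc7a7 window (chr14:54417895-54418194) has 2. In blastocysts these genes had a mean mRNA of 0.156, 0.491, and 13.4 FPKM and a mean RPF listed at 0, of 9.25, and of 13.16 FPKM. A match is a description of letters and not a site in use. Slc38a2 has a window in the table with no match, which says only that these letters are not in that window.

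Genes around the transporters were taken from lists of their own. Of 19 amino acid carriers outside these families, 9 were fitted and 0 passed in limma, with a median difference of -0.44. Of the 9, 1 had an unadjusted p under 0.05 in limma, against 35.9% of all genes fitted. The highest was the peptide carrier Slc15a2, at 259.5 and 212.9 FPKM of mRNA and 241.2 and 313.1 FPKM of RPF (difference -1.04, SE 0.29, limma adjusted p = 0.0889). It was named after its values were seen. Of 32 genes of amino acid sensing by mTORC1, 27 were fitted, 2 passed with a higher and 4 with a lower ratio (background 9.13% and 3.24%), and the median was 0.01. Sesn2, the leucine sensor that restrains mTORC1, had 2.39 and 1.81 FPKM of mRNA and 19.6 and 18.3 FPKM of RPF, a difference of 1.43 (limma adjusted p = 0.0451). The mTOR inhibitor Deptor was higher by 1.81 (limma adjusted p = 0.0494). The 4 with a lower ratio were Rptor, which brings substrates to mTOR, at -1.33, Nprl2 of the GATOR1 complex at -1.80, Wdr24 of the GATOR2 complex at -3.66 on a single library with footprints, and Tsc2, the inhibitor of Rheb, at -1.61 (limma adjusted p between 0.0395 and 0.0483). As for the members, none of these 6 calls was kept when either RNA-seq library was left out. Of 5 accessory proteins, 3 were fitted and 0 passed in limma (2 had an unadjusted p under 0.05, against the same 35.9% of all genes).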

How the data were processed

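RNA-seq and Ribo-seq of blastocysts, with 2 replicate libraries each, were analysed. The deposited files hold FPKM per gene and library. The authors trimmed reads (Trim Galore 0.4.2 or cutadapt 1.14), removed rRNA reads from Ribo-seq with Bowtie2 2.2.2, mapped to the mm9 transcriptome with STAR 2.5.3a with up to 20 places per read, and ran Cufflinks 2.2.1 on transcripts (RNA-seq) or coding sequences (Ribo-seq). Reads of similar genes can therefore be shared, and lengths differ between assays. Whether the counting used strand is not given in the sources used here.

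Where a symbol had several rows the highest FPKM was kept, which concerned 0 members. Depth was estimated from FPKM steps after correcting lengths for a fragment of 200 bases (SD 80, the Cufflinks defaults). Ratios were fitted with limma 3.58.1 (R 4.3.3) on log2(FPKM+1) and centred on the median gene. The fit gives each gene a single spread for both assays, although the RPF libraries were shallower. The p-values and intervals rest on this, also where a library is left out. A log2 value with this pseudocount understates changes of low genes. Other steps used Python 3.11.15 with pandas 2.3.3, numpy 2.4.6, and scipy 1.17.1. On simulated data for the 8327 genes, the fit recovered 23% of 100 genes changed by a log2 of 2. It recovered 87% of 100 changed by 4, and 2.65% of its calls were on unchanged genes. A gene that did not pass is thus not shown to equal the median. The simulation gave both assays of a gene the same spread, and all but 200 genes a common ratio. These shares need not hold for the real data.

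Coordinates, coding lengths, and the 28-base windows came from GENCODE vM1 on NCBIM37, which held 62 of the 65 members. Promoter windows came from RefSeq on GRCm38.p6 and were used for letters only. Members with a mean of at least 10 FPKM in either assay and those past the threshold are given with all values, and the others by counts or footprints. The members and gene lists were chosen with earlier results of these data known. One member is counted but not reported by name here.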

Additional observations from a re-analysis of the deposited data

How the results depend on the processing

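Without the filter on low values, 42 members were fitted. Of these, 6 had a higher and 14 a lower ratio, and 13 of the latter had RPF listed at 0 in both replicates. A filter of at least 5 FPKM gave 4 of 13 fitted members higher, and a variance trend gave 5 of 18. A pseudocount of 0.1 gave 1 of 18 (Slc1a1 was lost). Each of these settings gave 1 lower. With the replicate number as a block, 0 members passed in either direction (27 genes higher and 1 lower over all). An unadjusted p under 0.05 in limma was then reached by 9 of 18 members and 2520 of 8327 genes. The labels do not say whether same-numbered libraries are paired. Their deviations had a correlation of 0.00994 over the fitted genes, which cannot decide this. Leaving out 1 library gave 0 to 6 higher and 0 to 2 lower members, with the lone library assumed to vary like the others. Without Ribo-seq replicate 1 or 2 it gave 6 and 5 higher. Over all genes, the counts ran from 0 without either RNA-seq library to 1486 higher and 1601 lower without Ribo-seq replicate 1, against 760 and 270, and 413 and 130 with the pseudocount of 0.1. Without the filter they were 1272 and 2907 of 13402 genes fitted. With at least 5 FPKM they were 790 and 515 of 5083, and with the trend 1134 and 477 of 8327. Calls in either direction made up 31.2%, 25.7%, and 19.35% of the genes fitted in these settings, and 6.52% with the pseudocount of 0.1. Whether the members differ from these shares was not tested. Of all calls 73.8% were higher, and 57.5% under quantile normalization. The adjusted p ran from 0.00829 to 0.314 for Slc1a1, 0.0019 to 0.308 for Slc7a6, and 0.0123 to 0.3115 for Slc7a8 in limma, and the direction of the 3 did not change in any alternative that fitted them (Slc7a8 was not fitted with at least 5 FPKM). The ratio changed sign, without passing in any case, for Slc38a7 (range with a library left out -1.17 to 0.46), Slc43a3 (-0.59 to 0.31), Slc7a1 (-0.34 to 1.497), and Slc7a6os (-0.20 to 0.66). So did Slc6a13 (0.29 under quantile normalization, -1.46 to 0.42 with a library left out). For Slc6a14 it was -0.047 with a pseudocount of 0.1, -0.029 with at least 5 FPKM, -0.22 under quantile normalization, and -0.29 to 0.21 with a library left out. The correlation of RPF and mRNA over members was 0.773 to 0.891 with 1 replicate left out. Counts of members listed at 0 and of those with at least 10 FPKM moved by less than 1.5 times in every alternative. The depth of Ribo-seq limits members under about 5 FPKM.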
